A study of Aethionema arabicum with 12 samples.

Results

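The light response held in common by 2 accessions of the crucifer Aethionema arabicum was measured in imbibed seeds by sequencing of poly(A) RNA. The groups were seeds of the Cypriot accession CYP in white light (100 µmol m-2 s-1) and in darkness, and seeds of the Turkish accession TUR (line ES1020) in the same light and in darkness. All seeds were kept in their condition for 23 h, were intact and had not germinated when frozen, and each group held 3 libraries. The labels do not say whether the 3 libraries of a group came from separate seed batches, so p-values measure the spread between these libraries, which may be technical. Light is known to hold back germination in CYP and not in TUR, so that a response with the same direction and about the same size in both was found on both sides of that contrast.

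A gene counted as shared when its light change had the same direction in CYP alone and in TUR alone and the pair of log2 fold changes differed by less than 0.5. Of 15671 genes with at least 1 CPM (counts scaled to a common library size, with TMM factors for the levels given below) in at least 3 libraries, 9960 (63.6%) met this rule. The test of light used all 12 libraries, 6 in light against 6 in darkness, in edgeR's quasi-likelihood fit with accession as a covariate. A gene was called at a Benjamini-Hochberg adjusted p under 0.05 over all genes tested, and all adjusted p-values below come from this fit unless another comparison is named. Because the rule itself sets direction and similarity, the agreement of CYP and TUR among shared genes is a description and not a result.

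Seeds read light through phytochromes, which sense red and far-red light, and through cryptochromes and phototropins, which sense blue light. In darkness the COP1/SPA ubiquitin ligase marks factors such as HY5 for degradation and PIF factors keep light genes off, and light reverses both. In seedlings the same switch starts pigment and plastid genes, resets the circadian clock and slows elongation. Roles given below are those of the Arabidopsis thaliana genes to which the deposited table matches each A. arabicum model.

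Total counts ran from 7099578 to 13953792 per library. On log2 CPM the first principal component (62.62% of the variance) separated the accessions and the second (20.46%) separated light from dark libraries in both. The third component (4.687%) set CYP dark replicate 3 apart with a score of 33.31. Without that library 22 of the 256 shared genes chosen for naming fell outside the limit of the rule, against 10 to 31 without any other library. Those of the 22 described below are HY5, MYB12, CHYB2, IAA19, XTH16, OLEO1, WNK3, WRKY27, AA24G00057, AA53G00252, AA60G00062, AA91G00006 and AA102G00189. In bulk seeds, fewer cells of a type and less RNA per cell cannot be told apart. The labelled tissue held summed embryo axis and epidermis markers (8 models) at 111 to 157 CPM in light libraries and 154 to 224 CPM in dark libraries. Seed coat markers (8 models) summed to 63.2 to 91.6 CPM in light and 53.9 to 86.1 CPM in darkness. Of 2 endosperm marker models, 1 was at 0 in all libraries and the other (NCED6) stood at 1.74 to 11.6 CPM in light and 10.5 to 26 CPM in darkness.

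The additive fit called 5149 genes, 32.9% of those tested, and 4167 of them were shared, which is 26.6% of all genes tested. Among the shared called genes 2034 (13% of genes tested) were higher in light and 2133 (13.6%) were lower. The counts of lists and classes below are to be read against these shares. Without CYP dark replicate 3 the shared called genes numbered 4292, with 2129 higher and 2163 lower. The median size of the shared changes was 0.391 on the log2 scale, against a median SE of 0.104 over all genes tested. Most shared changes were small: 299 shared genes (1.91% of genes tested) changed at least 2-fold, 159 upward (1.01% of genes tested) and 140 downward (0.893%). Light and dark libraries did not overlap within CYP or within TUR for 2387 of the 4167, where the same held for 9.04% of all tested genes upward and 10% downward. For 892 shared genes none of the 6 light values overlapped any of the 6 dark values, against 3.86% of all tested genes upward and 3.18% downward.

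The limit of 0.5 kept most weak responses and removed many strong ones. It is wide beside small changes, so a shared gene could move clearly in 1 accession and little in the other. Of called genes under 2-fold 86.8% were shared, and of the 692 called at least 2-fold (4.42% of genes tested) 43.2% were. Among the strong called genes outside the rule 370 moved the same way in both accessions, 243 of them further in CYP and 127 further in TUR, and 23 moved in opposite directions. Of the 311 strong rises (1.98% of genes tested) 51.1% were shared, and of the 381 strong falls (2.43%) 36.7% were, a difference that was not tested. The difference between the light effects was itself called in 351 genes (2.24% of genes tested), of which 1 was shared. Since the rule limits this same difference, the low count among shared genes is a description. Just inside the limit among strong changes stood AA31G00259 and AA53G00252, with differences of -0.4969 and -0.4953 (CYP minus TUR), and just outside stood AA7G00063 and AA93G00279 with -0.5014 and 0.5015.

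**Figure D1:**
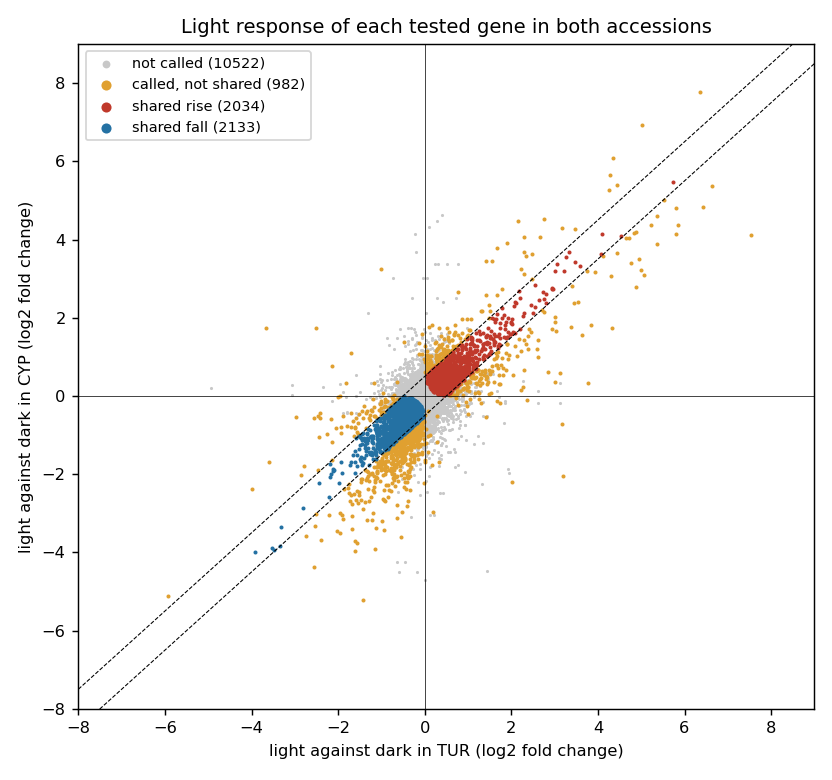
Log2 fold change of light against dark in TUR (horizontal) and in CYP (vertical) for each of the 15671 genes tested. Dashed lines mark a difference of 0.5 between the accessions: 2034 shared rises and 2133 shared falls lie between them, and the 982 other called genes lie outside them or in the quadrants of opposite sign.

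Among the 12 largest shared rises with a described Arabidopsis match, the leading gene was AA7G00034, matched to glutathione S-transferase 7 (GSTF7), of an enzyme family that conjugates glutathione to stress products and xenobiotics. Its level was 261, 295 and 285 CPM in CYP light, against 17.6, 16.9 and 12.8 CPM in CYP dark. In TUR it was 110, 154 and 119 CPM in light and 5.84, 8.3 and 8.3 CPM in darkness. No light library came near a dark library, and the fitted log2 fold change was 4.12 (SE 0.112, adjusted p = 1.36e-14), or 17.4-fold.

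A zinc knuckle gene, AA32G00419, matched to AT5G43630 (TZP, a nuclear factor that works with phytochromes in Arabidopsis), was the next to show well separated levels at high counts. It stood at 203, 169 and 188 CPM in CYP light and 18.8, 14.2 and 19 CPM in CYP dark. In TUR it had 124, 121 and 123 CPM in light and 10.5, 10.9 and 11.6 CPM in darkness, so that the spread within a group was far smaller than the 11-fold difference (log2 3.45, SE 0.0821). An ABC transporter gene matched to MRP6 (AA26G00775) had 82.4 to 89.8 CPM in CYP light, 8.21 to 10.4 CPM in CYP dark, 63.9 to 82.7 CPM in TUR light and 7 to 8.69 CPM in TUR dark. A GDSL lipase gene (AA49G00019) had 114 to 128 CPM in CYP light, 14.8 to 20.8 CPM in CYP dark, 108 to 112 CPM in TUR light and 13.4 to 14.9 CPM in TUR dark. Both moved by nearly equal amounts in the 2 accessions, with log2 fold changes of 3.18 in CYP and 3.22 in TUR for AA26G00775, and 2.76 in CYP and 2.95 in TUR for AA49G00019.

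The other large rises were a sugar transporter family gene (AA39G00224, log2 2.84), vacuolar iron transporter 1 (AA53G00658, 2.66), which stores iron in Arabidopsis embryos, and a Rossmann-fold reductase gene (AA102G00189, 2.60). The remaining 5 belong to light signalling and flavonoid synthesis and are described with those lists. Without the conditions on annotation and level, the largest shared rise was that of AA24G00057, matched to AT3G44450 (BIC2, which in Arabidopsis inhibits cryptochromes), a gene singled out after its values were seen. It had 3.26, 5.22 and 3.73 CPM in CYP light and 10.7, 13.2 and 8.77 CPM in TUR light. In darkness CYP libraries held 2 of its reads in all and TUR libraries 7, and the fitted log2 fold change was 5.68 (SE 0.31). AA40G00400, which has no Arabidopsis match and was also singled out after its values were seen, followed with 184 to 190 CPM in CYP light, 7.66 to 14.3 CPM in CYP dark, 88 to 102 CPM in TUR light and 3.38 to 4.34 CPM in TUR dark.

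**Figure D2:**
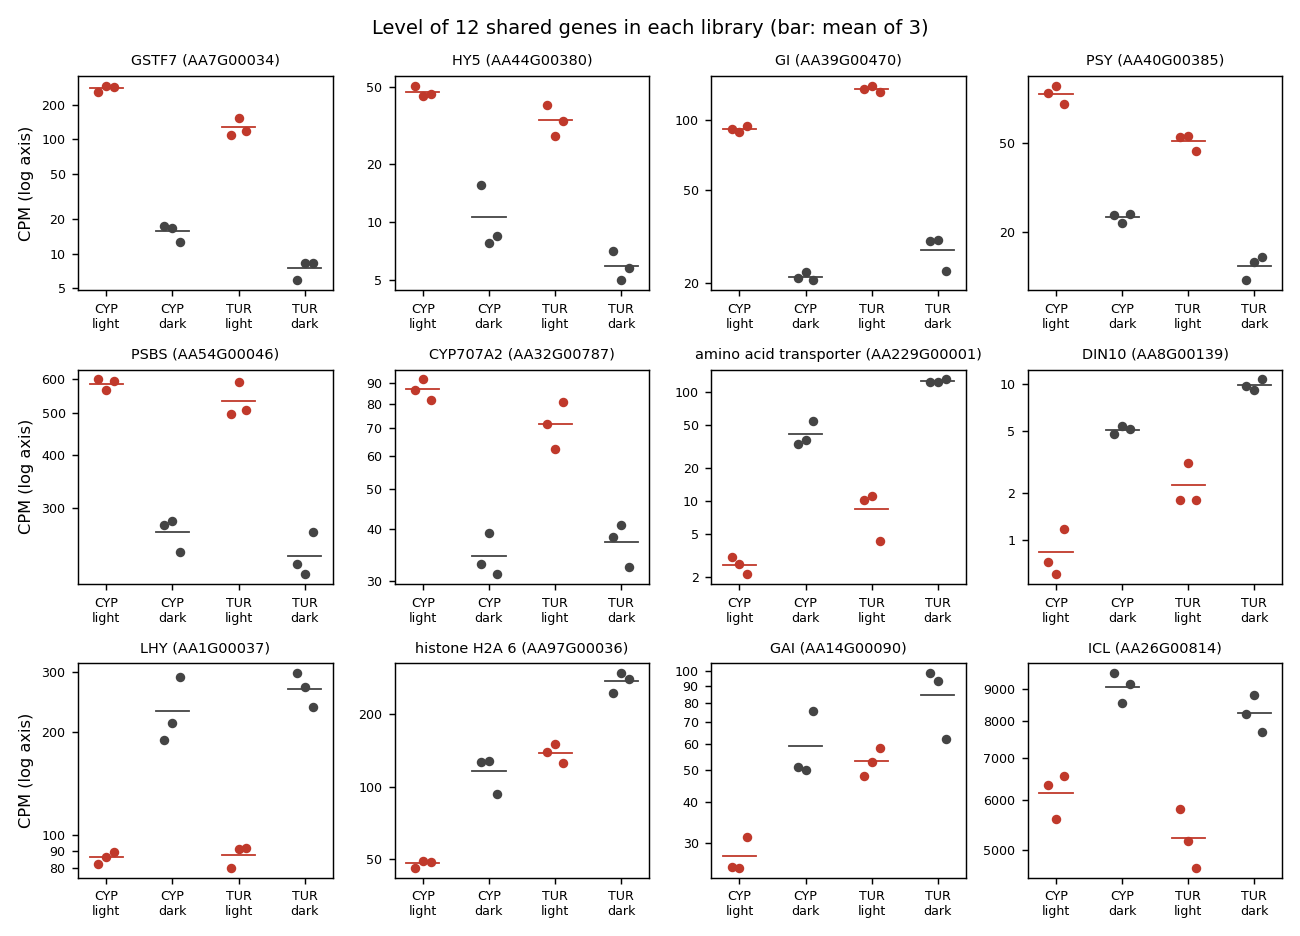
CPM (log axes) of 12 shared genes in each of the 12 libraries, light in red and dark in grey, with a bar at the mean of 3 libraries. The first 6 genes (GSTF7, HY5, GI, PSY, PSBS, CYP707A2) were higher in every light library of an accession than in any dark library of it, and the other 6 were lower.

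Among photoreceptors, 5 of 16 tested models were shared rises and 3 were shared falls, against 13% and 13.6% of all genes. Without TUR dark replicate 1 the falls numbered 5. The phytochromes moved in different directions. PHYE (AA57G00083) had 24.7 to 32.8 CPM in CYP light, 12.9 to 21.3 CPM in CYP dark, 26.5 to 28.9 CPM in TUR light and 14.5 to 17 CPM in TUR dark (log2 0.82, adjusted p = 1.48e-05). PHYD (AA18G00195) also rose (log2 0.63), as did PHYC (AA1057G00001, 0.28). PHYB (AA26G00394), the main light-stable red light receptor, fell to 29.2, 29.1 and 31 CPM in CYP light, against 49.3, 50.6 and 57.3 CPM in CYP dark. In TUR it had 39.3, 44.3 and 33.9 CPM in light and 48.8, 53.9 and 51.1 CPM in darkness, so that every light library was below every dark library (log2 -0.60, SE 0.0887). PHYA is not shared under the rule, with log2 fold changes of -1.49 in CYP and -0.92 in TUR.

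Blue light receptors moved both ways as well. Both models matched to phototropin 1, which directs growth and chloroplast movement, fell: AA16G00083 had 36.2 to 37.8 CPM in CYP light, 73.1 to 81.7 CPM in CYP dark, 26.8 to 28.9 CPM in TUR light and 73.7 to 83.3 CPM in TUR dark. Its log2 fold change was -1.27 (SE 0.0791), and that of AA16G00084 was -1.32 (SE 0.256). The models carry consecutive numbers, so they may be pieces of a single locus and not separate receptors. FKF1 (AA29G00025) and ZTL (AA44G00653), F-box proteins with a blue light sensing domain that target clock and flowering proteins, rose by 0.91 and 0.75.

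In the light signalling list 9 of 20 tested models were shared rises and 2 were shared falls. The SPA genes, partners of COP1 in the ligase that is active in darkness, all rose where called. SPA3 is matched by 2 models. AA15G00087 had 5.49, 5.48 and 4.83 CPM in CYP light and 0.899, 0.12 and 0 CPM in CYP dark, with 8.92, 8.48 and 8.54 CPM in TUR light and 0.769, 0.377 and 1.32 CPM in TUR dark (log2 3.45, SE 0.276). AA26G00242 rose by 2.22, SPA1 (AA21G00366) by 1.75 and SPA2 (AA3G00050) by 0.28. Reads can be shared between such copies, and how the authors counted them is not given.

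HY5 (AA44G00380), the bZIP factor that promotes light development, was 4.95-fold higher in light (log2 2.31, SE 0.148, adjusted p = 1.55e-09). The 6 light libraries had 27.8 to 50.9 CPM and the 6 dark libraries 5 to 15.5 CPM, without overlap. BBX32 (AA26G00766), a B-box protein that counteracts HY5 with its partners in Arabidopsis seedlings, had 5.85 to 6.68 CPM in CYP light, 0.718 to 1.4 CPM in CYP dark, 7.48 to 9.14 CPM in TUR light and 1.23 to 1.61 CPM in TUR dark. BBX20 (AA20G00038) and BBX22 (AA31G00730), which act with HY5, rose by 0.75 and 0.64, whereas BBX21 (AA31G00400) fell by 0.32. FHL (AA19G00318), which carries phytochrome A into the nucleus, fell by 0.69, and FAR1 (AA87G00209), which activates FHL in Arabidopsis, rose by 0.26, a call lost in 5 of the 12 fits that left out a library. Of the 10 PIF and shade genes tested, PIF6 (AA61G00561), a PIF factor of seeds, was the 1 called as shared, downward. It had 35 to 40.5 CPM in CYP light, 53 to 60 CPM in CYP dark, 18.1 to 23.3 CPM in TUR light and 27.6 to 33.1 CPM in TUR dark. A further 6 genes of that list were called but differed by over 0.5 between accessions, and 3 met the rule without being called. The list's count was unstable: shared falls numbered 2 or 3 in 8 of the 12 fits that left out a library and 2 in DESeq2, and shared rises numbered 1 in 6 of those 12 fits.

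In the clock list 10 of 19 tested models were shared rises and 3 were shared falls, against 13% and 13.6% of all genes. The morning factors LHY and CCA1, related MYB proteins that repress evening genes, both fell. LHY (AA1G00037) had 82.2, 86.4 and 89.4 CPM in CYP light and 190, 213 and 289 CPM in CYP dark, and 80.1, 91 and 91.7 CPM in TUR light and 297, 270 and 236 CPM in TUR dark. The accessions thus had nearly the same level in each condition, and the log2 fold change was -1.52 (SE 0.0961, adjusted p = 1.27e-09). CCA1 (AA21G00411) fell by 1.13 and RVE8 (AA93G00119) by 0.37.

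The 10 shared rises of the list included genes of the evening and of the morning and day. GI (AA39G00470), which works with FKF1 and ZTL, had 91.8, 89.1 and 95.1 CPM in CYP light and 21, 22.3 and 20.5 CPM in CYP dark, with 137, 141 and 133 CPM in TUR light and 30.4, 30.6 and 22.5 CPM in TUR dark. LUX (AA16G00033) and ELF4 (AA29G00273), subunits of the evening complex, rose by 2.23 and 1.69, and TOC1 (AA5G00153) by 1.21. LNK1 (AA4G00149) rose by 1.71 and LNK2 (AA529G00003) by 0.34, PRR5 (AA12G00013) by 0.91 and PRR7 (AA19G00276) by 0.38, RVE2 (AA27G00183) by 0.92 and RVE1 (AA40G00379) by 0.68. All libraries of a condition were taken after 23 h, so a change of level and a shift of phase cannot be told apart.

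**Figure D3:**
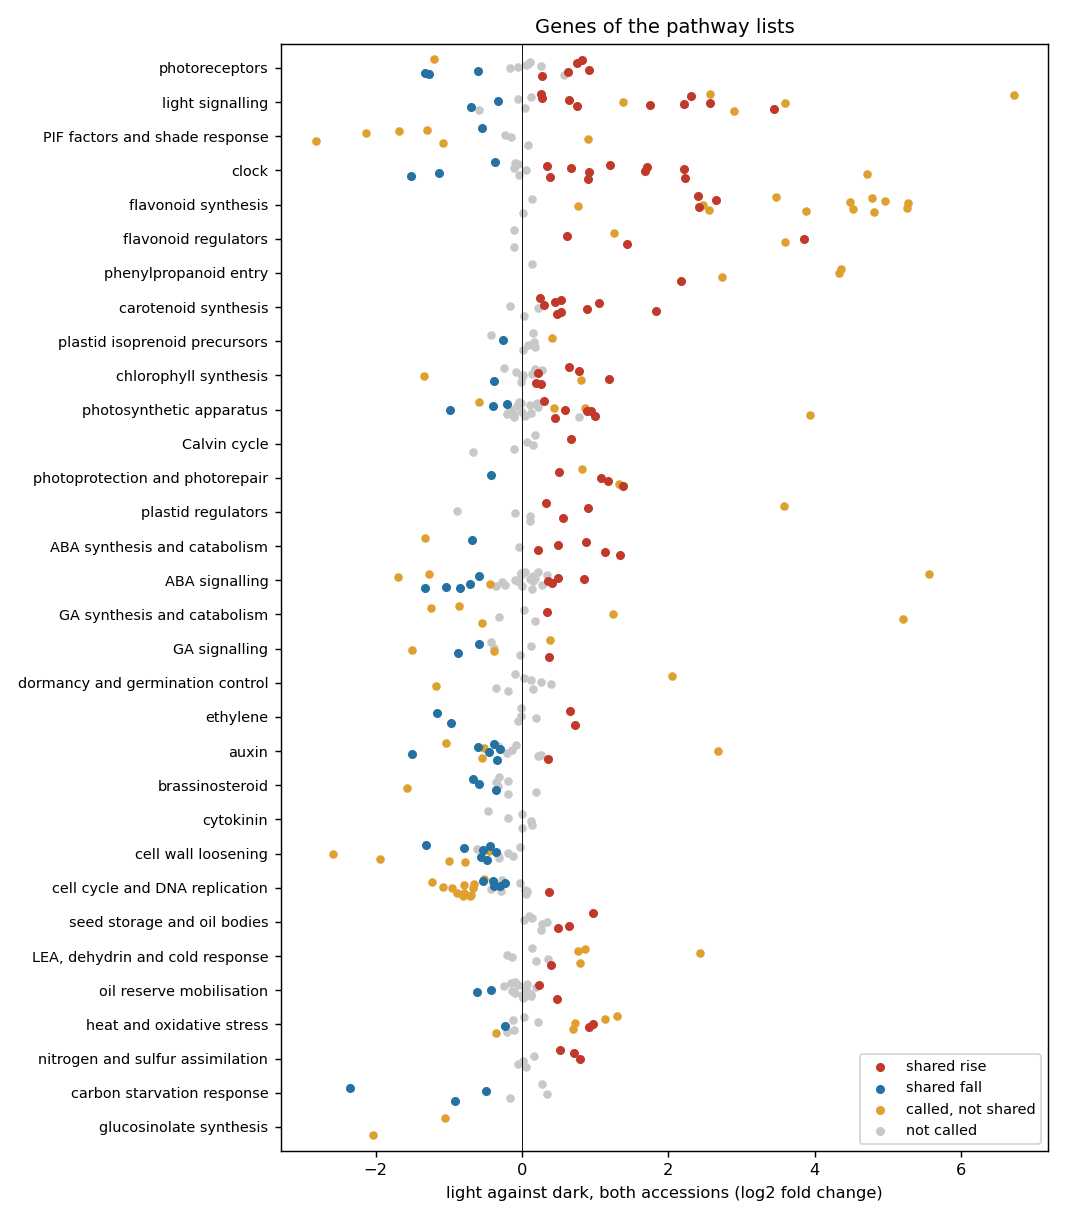
Log2 fold change of light against dark in both accessions for every tested gene of the 32 pathway lists. Red and blue points are shared rises and falls, orange points are called genes outside the rule and grey points are not called: clock and carotenoid genes are mostly red, cell wall loosening genes blue or orange, and most flavonoid synthesis genes orange.

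Flavonoid synthesis had the highest median of the 35 lists (log2 3.47 over its tested models), yet 3 of its 17 tested models were shared and 12 more rose in both accessions with differences over the limit. Without CYP dark replicate 3 the shared ones numbered 5, and in limma 8 on log2(RPKM + 1) and 10 on log2(RPKM + 5). FLS1 (AA44G00190), which makes flavonols, had 11.9, 12.5 and 9.58 CPM in CYP light and 1.9, 1.44 and 2.89 CPM in CYP dark, with 21.4, 17.1 and 20.9 CPM in TUR light and 3.46, 2.64 and 2.64 CPM in TUR dark. UGT75C1 (AA87G00312), which adds glucose to anthocyanins, had 214 to 231 CPM in CYP light, 41.4 to 54.1 CPM in CYP dark, 168 to 180 CPM in TUR light and 26.7 to 31.1 CPM in TUR dark (log2 2.41, SE 0.082). AHA10 (AA39G00025), a proton pump of seed coat vacuoles, rose by 2.42. It lay at the edge of the rule and outside it in 9 of the 12 fits that left out a library.

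The 3 flavonoid regulators called as shared, of 7 tested, rose. MYBL2 (AA38G00006), a repressor of anthocyanin synthesis, had 5.33, 5.74 and 5.7 CPM in CYP light and 0.499, 0.239 and 0.608 CPM in CYP dark, with 4.65, 6.36 and 4.91 CPM in TUR light and 0.308, 0.377 and 0.233 CPM in TUR dark. Its log2 fold change of 3.86 (SE 0.222) was larger than that of MYB12 (AA21G00471, 1.43), an activator of flavonol genes, and of an EGL3 model (AA53G01357, 0.62), a bHLH activator of anthocyanin genes. At the entry to the pathway 4CL1 (AA2G00223) rose by 2.18, with 47.1 to 52.5 CPM in CYP light, 8.19 to 11.9 CPM in CYP dark, 41.5 to 53.8 CPM in TUR light and 8.76 to 13.3 CPM in TUR dark.

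In carotenoid synthesis 9 of 12 tested genes were shared rises, and no other gene of the list was called by edgeR. Shared falls numbered 0 in edgeR, also at an unadjusted p under 0.05, and 0 in DESeq2 and in limma. Phytoene synthase PSY (AA40G00385), the step that controls the flux, had 83.8, 90 and 74.4 CPM in CYP light and 24, 22 and 24.2 CPM in CYP dark, with 53.3, 53.6 and 45.9 CPM in TUR light and 12.2, 14.7 and 15.5 CPM in TUR dark. The fold changes were close to equal, at 1.82 in CYP and 1.85 in TUR on the log2 scale (1.83 together, SE 0.0801, adjusted p = 6.93e-12). The desaturases PDS (AA87G00303) and ZDS (AA10G00134) and the isomerase Z-ISO (AA65G00141), which act next, rose by 0.46, 0.48 and 0.31. Of the cyclases LCYE (AA44G00684), on the branch to lutein, rose by 0.89 and LCYB (AA93G00194) by 0.25, and of the later enzymes CHYB2 (AA77G00002) rose by 1.05, LUT1 (AA36G00028) by 0.54 and ZEP (AA8G00025) by 0.53. CHYB2 was outside the limit in 5 of the 12 fits that left out a library.

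In chlorophyll synthesis 6 of 17 tested models were shared rises and 1 was a shared fall. CHLP (AA31G00501), which makes the phytyl tail, had 54.6, 45.8 and 54.4 CPM in CYP light and 24.4, 24.8 and 25.4 CPM in CYP dark, with 25.9, 20.7 and 26 CPM in TUR light and 9.07, 9.24 and 10.1 CPM in TUR dark. CAO (AA54G00045), which makes chlorophyll b, rose by 0.79 and CRD1 (AA61G00159) by 0.64. The rises of CHLM (0.26), GSA1 (0.22) and CHLD (0.19) were smaller, and the list had 3 shared rises in the fits without TUR light replicate 3, CYP dark replicate 2, CYP light replicate 1 or CYP light replicate 3. Chlorophyll synthase CHLG (AA215G00005) fell by 0.38.

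Of 29 tested models of the photosynthetic apparatus, 6 were shared rises (20.7%) and 3 were shared falls (10.3%), against 13% and 13.6% of all genes. A further 4 were called outside the rule. The rises included the photosystem II subunit PSBR (AA31G00770, log2 0.94), the photosystem I subunit PSAD2 (AA32G00310, 0.89) and the antenna gene LHCB3 (AA11G00033, 1.00). LHCB3 was close to the filter, at 1.97 to 3.25 CPM in light and 0.999 to 1.51 CPM in darkness. PSBP1 (AA32G00637) fell by 0.98. The other 2 falls were those of an ATPD model and PSAO. The list had 0 shared falls when TUR dark replicate 1 or TUR light replicate 2 was left out, and 1 when TUR dark replicate 2 or CYP dark replicate 1 was.

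Of 7 tested genes of photoprotection and photorepair 4 were shared rises and 1 was a shared fall. PSBS (AA54G00046), which triggers the release of excess light as heat, had 598, 565 and 593 CPM in CYP light and 274, 280 and 237 CPM in CYP dark, with 497, 591 and 508 CPM in TUR light and 223, 211 and 264 CPM in TUR dark (log2 1.17, SE 0.0751). PGR5 (AA116G00006), needed for cyclic electron flow, rose by 1.38 and OHP2 (AA54G00149), an assembly factor of photosystem II, by 1.07. Among plastid regulators the GATA factor GNC (AA44G00699) rose by 0.91 and the plastid sigma factors SIG2 (AA103G00010) and SIG6 (AA60G00086) by 0.56 and 0.33.

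The class of pentatricopeptide repeat proteins, most of which process RNA in plastids and mitochondria, held 246 tested models. Of these 60 were shared rises and 4 were shared falls, that is 24.4% upward against 13% of all genes. Without TUR dark replicate 3 the falls numbered 7. The rises were small, with a median of 0.402. The class was set by words in the descriptions and also holds models described as tetratricopeptide repeat-like. Such models need not be pentatricopeptide repeat proteins. AA507G00001 and AA93G00122, both so described, rose by 1.53 and 1.00. AA93G00122 had 76.6 to 90.8 CPM in CYP light, 39.5 to 54.6 CPM in CYP dark, 103 to 109 CPM in TUR light and 46.8 to 52.9 CPM in TUR dark. Models described as DNAJ or heat shock proteins, which are chaperones, had 21 shared rises (20.2%) and 9 shared falls (8.65%) among 104, against 13% and 13.6% of all genes. HSP101 (AA31G00517) rose by 0.92 and the heat shock factor HSFA2 (AA32G01052) by 0.97.

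**Figure D4:**
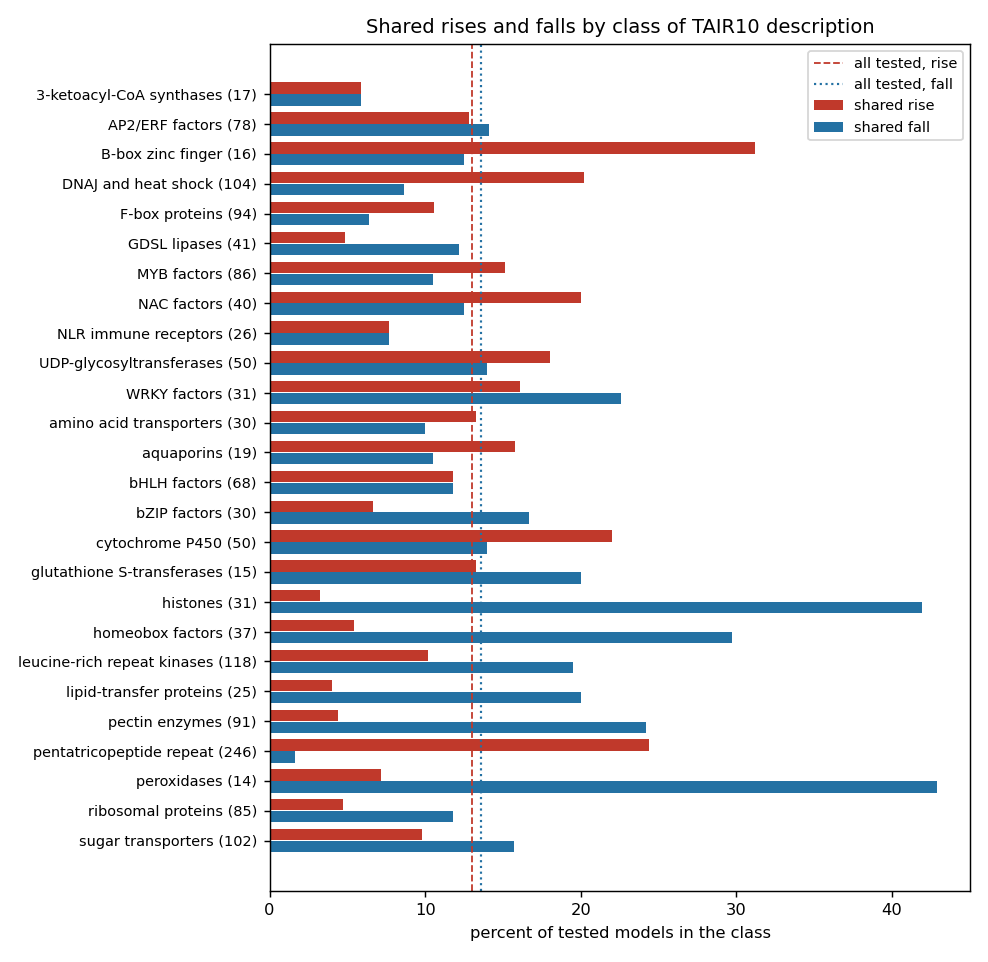
Percent of tested models in each of 26 classes of TAIR10 description that were shared rises (red) or shared falls (blue), with the number of models tested in brackets and dashed and dotted lines at 13% and 13.6% for all genes. B-box factors (31.2%) and the pentatricopeptide repeat class (24.4%) have the highest shares of rises. Peroxidases (42.9%), histones (41.9%) and homeobox factors (29.7%) have the highest shares of falls.

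Abscisic acid (ABA), the hormone that holds seeds dormant, is made through NCED enzymes and broken down by CYP707A enzymes. Of 8 tested models 5 were shared rises and 1 was a shared fall, and without CYP dark replicate 2 the rises numbered 3. NCED9 (AA31G00716), a synthesis gene of seeds, had 4.62, 3 and 4.75 CPM in CYP light and 2.4, 1.44 and 1.82 CPM in CYP dark, with 6.3, 5.99 and 7.25 CPM in TUR light and 2.23, 2.07 and 2.56 CPM in TUR dark. NCED6 (AA78G00012) fell outside the rule, with log2 fold changes of -0.82 in CYP and -2.06 in TUR. CYP707A2 (AA32G00787), the main breakdown gene of imbibed Arabidopsis seeds, had 82 to 91.8 CPM in CYP light, 31.2 to 39.1 CPM in CYP dark, 62.2 to 81.2 CPM in TUR light and 32.3 to 40.9 CPM in TUR dark (log2 1.14, SE 0.0949). The 2 models matched to CYP707A3 moved apart: AA57G00196 rose by 0.87 and AA6G00060 fell by 0.68. ABA3 (AA37G00095) and AAO3 (AA32G00943), of the last step of synthesis, rose by 0.49 and 0.22.

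In ABA signalling 4 of 30 tested models were shared rises and 5 were shared falls, close to the shares of all genes, so the members are named without a common direction. The falls were those of the receptors PYL8 (AA11G00152, -1.04), PYL6 (AA29G00245, -0.70) and PYR1 (AA57G00057, -0.59), the kinase OST1 (AA118G00060, -0.84) and the bZIP factor ABF3 (AA118G00053, -1.32). The rises were those of the phosphatases ABI2 (AA44G00681, 0.85), AHG3 (AA52G00006, 0.49) and HAI3 (AA32G00752, 0.36) and of the bZIP factor ABF1 (AA2G00098, 0.41). A further 4 genes were called outside the rule, 1 higher (PYL11, log2 5.57) and 3 lower (ABI4, PYL4 and a second PYR1 model). ABI2 had 6.76 to 9.29 CPM in CYP light, 3.95 to 5.29 CPM in CYP dark, 15.5 to 16.6 CPM in TUR light and 8.02 to 9.85 CPM in TUR dark.

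Gibberellin (GA) promotes germination by removing DELLA repressors. Both shared falls of the GA signalling list were DELLA genes: GAI (AA14G00090) had 25.3 to 31.4 CPM in CYP light, 50.1 to 75.7 CPM in CYP dark, 48 to 58.6 CPM in TUR light and 62 to 98.4 CPM in TUR dark (log2 -0.87). RGA (AA53G00639) had 152 to 169 CPM in CYP light, 209 to 298 CPM in CYP dark, 120 to 134 CPM in TUR light and 160 to 206 CPM in TUR dark (log2 -0.59). GAI was outside the limit without TUR dark replicate 1 or CYP light replicate 3. The GA receptor gene GID1A (AA10G00111) rose by 0.37. Of 10 tested GA signalling models 1 was thus a shared rise (10%) and 2 were shared falls (20%), against 13% and 13.6% of all genes. A further 3 were called outside the rule, 1 higher and 2 lower. Of 9 models of GA synthesis and catabolism 1 was shared (11.1%), the rise of the synthesis gene KAO2 (AA32G00528, 0.34), with 0.46 in CYP and 0.22 in TUR. Outside the rule 5 more of them were called, 2 higher and 3 lower, and values ran from log2 -1.24 to 5.21. The list of dormancy and germination control (10 tested) had 0 shared calls in the main edgeR fit, although 5 of its genes met the rule on direction and size. At an unadjusted p under 0.05, 2 of these were higher and 1 was lower, DESeq2 called 0, and limma called 0 higher and 1 lower. In edgeR 1 shared rise was called with library totals alone, with no filter and in 3 of the 12 fits that left out a library. With the mean of the light effects of TUR and CYP, 1 shared rise and 1 shared fall were called. A further 2 genes of the list were called outside the rule, 1 higher and 1 lower.

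Brassinosteroid and auxin genes, which drive elongation, fell where they were shared, with 1 exception. The brassinosteroid receptor BRI1 (AA20G00008) fell by 0.36, with log2 fold changes of -0.56 in CYP and -0.16 in TUR, where it was not called alone. The response factors BES1 (AA39G00217) and BZR1 (AA31G00448) fell by 0.67 and 0.59. This makes 3 shared falls among 10 tested brassinosteroid models (30%, against 13.6% of all genes), and 1 more fell outside the rule. Without TUR dark replicate 2, TUR dark replicate 3 or TUR light replicate 3, 5 were shared falls. For auxin 6 of 17 were shared falls (35.3%) and 1 a shared rise (5.88%), against 13.6% and 13% of all genes. A further 4 were called outside the rule, 1 higher and 3 lower, and the highest value of the auxin list was log2 2.68. The efflux carrier PIN3 (AA38G00012) had 27.5 to 30.1 CPM in CYP light, 40.3 to 57.9 CPM in CYP dark, 33 to 34.1 CPM in TUR light and 38.6 to 58.2 CPM in TUR dark. The influx carrier AUX1 (AA342G00006) fell by 0.30, ARF6 (AA54G00428) by 0.38 and ARF16 (AA102G00149) by 0.34. The fall of IAA19 (AA26G00266, -1.50) and the rise of IAA2 (AA17G00100, 0.36) were lost in 2 and 10 of the 12 fits that left out a library. IAA19 was also outside the limit in 4 of those 12 fits. It did not pass the filter in 5 of the alternative fits, so its shared fall is weakly held.

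For ethylene, 2 of 8 tested genes were shared rises and 2 were shared falls (25% each, against 13% and 13.6% of all genes). EBF2 (AA12G00084), an F-box protein that removes the ethylene factor EIN3, had 204 to 220 CPM in CYP light, 124 to 145 CPM in CYP dark, 310 to 322 CPM in TUR light and 162 to 200 CPM in TUR dark (log2 0.72, SE 0.0686). Both shared falls were ethylene-forming oxidases, ACO1 (AA33G00241) by 1.16 and ACO4 (AA19G00046) by 0.97.

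The largest shared fall was that of AA229G00001, matched to an amino acid transporter family gene. It had 3.02, 2.65 and 2.12 CPM in CYP light and 33, 36.6 and 54.7 CPM in CYP dark, with 10.1, 11.1 and 4.31 CPM in TUR light and 124, 123 and 131 CPM in TUR dark. The log2 fold change was -3.94 (SE 0.176, adjusted p = 9.53e-12), which is 15.4-fold lower in light, and the level was lower in CYP than in TUR in both conditions. An aspartyl protease gene (AA65G00026) fell by 3.63 and an AP2/ERF factor gene (AA31G00259) by 3.56. AA31G00259 had 0.257 to 0.478 CPM in CYP light, 5.03 to 6.49 CPM in CYP dark, 0.45 to 1.37 CPM in TUR light and 6.67 to 7.3 CPM in TUR dark.

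Further large falls were those of the cellulase family gene GH9C3 (AA3G00055, -2.09), a serine carboxypeptidase-like gene (AA3G00278, -1.99), the kinase gene WNK3 (AA96G00089, -1.50), a DNA-binding factor gene (AA26G00398, -1.39) and AA7G00107 (-1.36). The last is matched to AT5G19530 (ACL5), a thermospermine synthase that limits xylem formation in Arabidopsis. AA3G00278 had 11.8 to 13.8 CPM in CYP light, 44.6 to 52.1 CPM in CYP dark, 3.02 to 4.12 CPM in TUR light and 12.1 to 19.4 CPM in TUR dark. The lack of overlap within an accession was a condition for naming the largest falls and is not a result. WNK3 was outside the limit in 5 of the 12 fits that left out a library.

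Genes of carbon starvation, which mark low sugar supply, fell where called, and 3 of 6 tested were shared falls. DIN10 (AA8G00139), a raffinose synthase family gene induced in dark-kept Arabidopsis leaves, had 0.716, 0.599 and 1.17 CPM in CYP light and 4.79, 5.38 and 5.17 CPM in CYP dark, with 1.8, 3.12 and 1.81 CPM in TUR light and 9.84, 9.24 and 10.8 CPM in TUR dark. DRM1 (AA184G00005), a dormancy-associated gene, fell by 0.91 and TPS9 (AA39G00564), of the trehalose phosphate synthase family, by 0.49. Of 19 tested genes for turning stored oil into sugar, 2 were shared rises and 2 were shared falls (10.5% each), no more than among all genes. ICL (AA26G00814), of the glyoxylate cycle, had 6332, 5597 and 6546 CPM in CYP light and 9528, 8539 and 9148 CPM in CYP dark, with 5807, 5159 and 4674 CPM in TUR light and 8217, 8798 and 7676 CPM in TUR dark. The gluconeogenesis gene PCK1 (AA30G00293) fell by 0.42, with log2 fold changes of -0.61 in CYP and -0.23 in TUR. The β-oxidation genes AIM1 (AA102G00061) and ACX2 (AA4G00241) rose by 0.48 and 0.23.

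Of 9 tested models of the storage list 3, all for oil body proteins, were shared rises: OLEO2 (AA87G00124, 0.97), OLEO1 (AA131G00012, 0.64) and CLO1 (AA10G00436, 0.49). The count was 0 when either TUR dark replicate 2 or TUR light replicate 1 was left out, and 1 when TUR light replicate 3, CYP dark replicate 1 or CYP light replicate 3 was. CLO1 rose by 0.73 in CYP and 0.23 in TUR, and was outside the limit in 9 of the 12 fits that left out a library. The whole list took 0.346 to 1.02% of counts in light libraries and 0.272 to 0.759% in dark libraries. In sulfur assimilation the reductases APR2 (AA53G00592) and APR3 (AA57G00395) rose by 0.79 and 0.71, and the rise of APR1 (AA6G00271, 0.52) was lost in 9 of the 12 fits that left out a library. APR2 had 159 to 166 CPM in CYP light, 84.1 to 106 CPM in CYP dark, 78.3 to 92.6 CPM in TUR light and 42.3 to 52.5 CPM in TUR dark.

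Genes of cell wall loosening and growth fell where they were called. Of 18 tested models 7 were shared falls and 5 more fell with accession differences over the limit. Shared rises numbered 0 in edgeR, also at an unadjusted p under 0.05, and 0 in DESeq2 and in limma. XTH16 (AA78G00036), which cuts and rejoins xyloglucan, had 149, 166 and 157 CPM in CYP light and 359, 334 and 271 CPM in CYP dark, with 253, 285 and 231 CPM in TUR light and 356, 361 and 418 CPM in TUR dark (log2 -0.80, SE 0.097). The expansins EXPA8 (AA93G00067), EXPA3 (AA60G00003) and EXPA1 (AA47G00004) fell by 1.31, 0.53 and 0.35, XTH9 (AA32G00336) by 0.56, and the mannanases MAN5 (AA228G00014) and MAN7 (AA8G00079) by 0.47 and 0.44. XTH16 was outside the limit in 2 of the 12 fits that left out a library.

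Pectin enzymes had 22 shared falls and 4 shared rises among 91 tested models (24.2% downward against 13.6% of all genes), and 20 further falls outside the rule. A pectin lyase-like gene (AA61G00501) had 29.2, 29.7 and 36.2 CPM in CYP light and 82.9, 75.1 and 114 CPM in CYP dark, with 46.6, 56.2 and 38.5 CPM in TUR light and 168, 154 and 120 CPM in TUR dark. Of 14 peroxidases, which cross-link or loosen walls, 6 were shared falls and 1 was a shared rise, which was lost without TUR light replicate 3. AA57G00392 (matched to AT4G21960) fell by 1.12, with 131 to 151 CPM in CYP light, 263 to 400 CPM in CYP dark, 79.9 to 109 CPM in TUR light and 179 to 222 CPM in TUR dark. The 4 shared pectin rises were not stable: 0 to 2 were left in 9 of the fits that left out a library.

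Histones, which package newly made DNA, had 13 shared falls among 31 tested models (41.9%) and 1 shared rise. The histone H2A 6 gene (AA97G00036) had 46, 49.2 and 48.9 CPM in CYP light and 127, 128 and 93.6 CPM in CYP dark, with 140, 150 and 125 CPM in TUR light and 246, 296 and 281 CPM in TUR dark. HMGA (AA14G00088), a chromatin protein, fell by 1.37. In the cell cycle list 5 of 25 models were shared falls (PCNA2, CYCA2;3, CYCD2;1 and both MCM3 models, from -0.535 to -0.235) and 1, CYCB1;1, was a shared rise. A further 12 fell outside the rule. The fall of CYCD2;1 was lost in 10 of the 12 fits that left out a library, and the list had 3 shared falls without CYP dark replicate 2 or CYP light replicate 3. The MCM3 models AA56G00051 and AA56G00052 carry consecutive numbers and may be pieces of a single locus.

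Homeobox factors, many of which pattern meristems and vascular tissue, held 37 tested models. Of these 11 were shared falls (29.7%) and 2 were shared rises (5.41%), against 13.6% and 13% of all genes. Without CYP dark replicate 1 the falls numbered 6, and without CYP dark replicate 3 they numbered 7. AA53G00712, matched to homeobox protein 21, had 34.2 to 39.4 CPM in CYP light, 56.1 to 71.7 CPM in CYP dark, 34.4 to 36.5 CPM in TUR light and 42.6 to 52.9 CPM in TUR dark. Leucine-rich repeat kinases had 23 shared falls (19.5%) and 12 shared rises (10.2%) among 118. The rises numbered 5 without TUR light replicate 1 or CYP dark replicate 1, 6 without CYP light replicate 3, and 7 without TUR light replicate 2 or CYP dark replicate 2.

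The other classes of factors and enzymes held shared genes in both directions. Of 40 NAC factors 8 were shared rises (20%) and 5 were shared falls (12.5%). The rises numbered 5 without TUR dark replicate 1, TUR dark replicate 2 or CYP light replicate 2, and the falls 3 without any of TUR dark replicates 2 and 3, TUR light replicate 3 and CYP light replicates 1 and 3. NAC032 (AA31G00236), a stress-responsive factor, had 55.6, 55.4 and 45.3 CPM in CYP light and 15.2, 12.9 and 10.8 CPM in CYP dark, with 55.4, 22.8 and 39.3 CPM in TUR light and 15.8, 10.8 and 14.1 CPM in TUR dark. TUR light replicate 2 was the lowest light library and still above every dark library. ATAF1 (AA1G00095, matched to AT1G01720), a NAC factor of stress and senescence, rose by 1.01 and RD26 (AA32G01100, matched to AT4G27410), a factor induced by drying and ABA, by 1.65. RD26 was close to the filter, at 1.11 to 1.87 CPM in light and 0.233 to 0.769 CPM in darkness. Of 31 WRKY factors 5 were shared rises (16.1%) and 7 were shared falls (22.6%). The rises numbered 3 without TUR light replicate 3 or CYP dark replicate 2, and the falls 4 without TUR dark replicate 1, CYP dark replicate 1, CYP light replicate 2 or CYP light replicate 3. Of 78 AP2/ERF factors 10 were shared rises (12.8%), 6 without TUR dark replicate 2, and 11 were shared falls (14.1%), near the 13% and 13.6% of all genes. WRKY4 (AA14G00003) rose by 0.93, with 65.2 to 73.8 CPM in CYP light, 33.3 to 40.9 CPM in CYP dark, 24.6 to 28.3 CPM in TUR light and 12.5 to 14.1 CPM in TUR dark. The AP2 gene AA91G00006, matched to AT3G54990 (SMZ, a floral repressor), rose by 2.33 at 2.94 to 3.97 CPM in light and 0.239 to 1.08 CPM in darkness.

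Among transporters the aquaporin gene AA60G00062, matched to plasma membrane intrinsic protein 2, had 13.1, 16.5 and 13.8 CPM in CYP light and 3, 3.35 and 3.95 CPM in CYP dark, with 37.8, 33.7 and 34.8 CPM in TUR light and 11.2, 10.9 and 11.2 CPM in TUR dark. Aquaporins form water channels, and this gene was higher in TUR than in CYP in both conditions. Of 19 aquaporins 3 were shared rises (15.8%) and 2 were shared falls (10.5%), near the 13% and 13.6% of all genes. The rises numbered 0 when TUR light replicate 1 was left out and 1 when TUR dark replicate 1 or TUR light replicate 2 was. A glycosyltransferase gene, AA33G00122, had 213 to 229 CPM in CYP light, 61.7 to 72.7 CPM in CYP dark, 98.5 to 122 CPM in TUR light and 27.4 to 32.5 CPM in TUR dark (log2 1.77, SE 0.0755). Of 25 lipid-transfer proteins, which carry lipids to walls and cuticles, 5 were shared falls (20%) and 1 was a shared rise (4%). The rise was lost without CYP dark replicate 2. AA123G00165 of this class fell by 1.19, with 40.4 to 43.8 CPM in CYP light, 75.1 to 130 CPM in CYP dark, 83.7 to 95.4 CPM in TUR light and 187 to 222 CPM in TUR dark. Of 6 tested cytokinin genes edgeR called 0 in either direction, with 0 shared at an unadjusted p under 0.05 and 0 called as shared by DESeq2 or limma.

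Of the 7 tested embryo axis and epidermis markers 3 were shared falls, CUC2 (AA11G00058, -1.53), STM (AA53G01430, -0.62) and SCR (AA166G00013, -0.45), and 2 more fell outside the rule. The log2 fold change of SCR was -0.68 in CYP and -0.23 in TUR. The fall of STM was lost without TUR dark replicate 2 or CYP dark replicate 3. The part of these markers in the falls of growth, histone and homeobox genes was not tested. Ribosomal protein genes had 4 shared rises (4.71%) and 10 shared falls (11.8%) among 85, against 13% and 13.6% of all genes. The falls numbered 26 without CYP dark replicate 3 and 16 with DESeq2.

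The level difference between the accessions is not used by the rule and was tested in the same fit. CYP and TUR differed in 2678 of the 4167 shared called genes (64.3%), against 61.1% of all genes tested, with 1384 higher and 1294 lower in CYP. Differences of at least 2-fold between accessions were found in 10.2% of the shared genes, against 14.5% of all genes tested. For 1678 shared genes (40.3%) the accession difference was larger than the light effect. The share of genes that differed between accessions was thus near that of all genes.

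Among the 299 shared genes that light changed at least 2-fold, 214 (71.6%) differed between accessions, against 61.1% of all genes tested. Of the strong rises 65 were higher and 43 lower in CYP, and of the strong falls 27 were higher and 79 lower in CYP. Over all shared called genes 1384 were higher and 1294 lower in CYP. This split by direction is not given for all genes tested and was not tested, so it is a description. Each of the 6 largest accession differences among these 299 genes was lower in CYP. Low counts in CYP limit some of them. AA39G00281 held 0 reads in CYP light and 4 in CYP dark, and AA494G00002 held 8 and 2. Neither light effect was called in CYP alone, and AA39G00281 reached 1 CPM in TUR dark libraries only. A vacuolar invertase family gene (AA65G00274), whose product splits sucrose, had 2.39, 2.83 and 3.44 CPM in CYP light and 1.4, 0.957 and 1.67 CPM in CYP dark, against 32.2, 41.5 and 24.4 CPM in TUR light and 13.7, 16.1 and 15.1 CPM in TUR dark. Light raised it by 1.12 on the log2 scale in each accession, while its level differed by -3.48 between CYP and TUR (SE of the light effect 0.146, adjusted p of the accession difference 2.88e-12). A fasciclin-like arabinogalactan gene (AA8G00330) had 0.585 to 1.11 CPM in CYP light and 0.957 to 2.6 CPM in CYP dark, against 6.65 to 10.3 CPM in TUR light and 13.9 to 19.6 CPM in TUR dark.

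**Figure D5:**
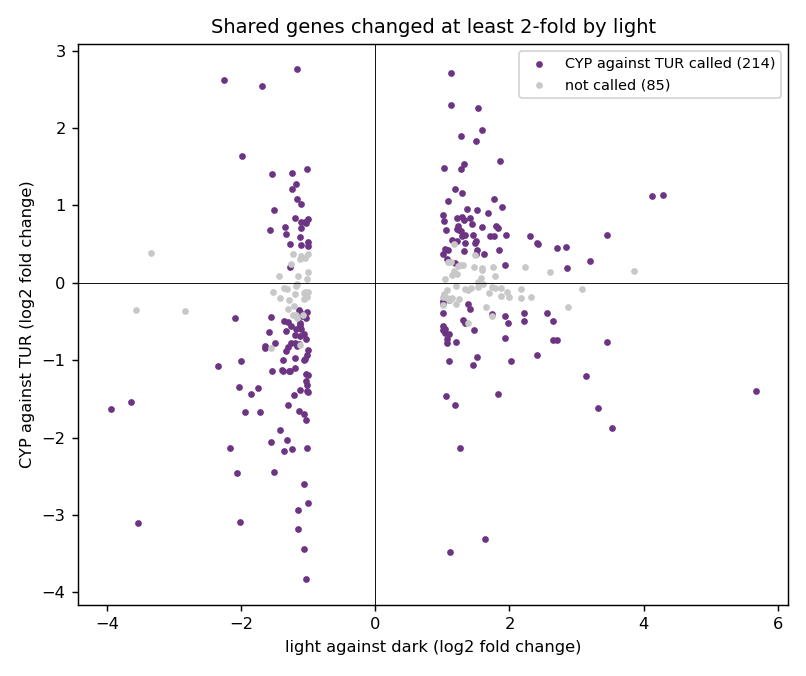
Light against dark (horizontal) and CYP against TUR (vertical), both as log2 fold changes of the additive fit, for the 299 shared genes that light changed at least 2-fold. Purple points are the 214 genes called for the accession difference: among genes lowered by light 79 lie below 0 and 27 above it, and among genes raised by light 43 lie below and 65 above. These splits were not tested.

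Taking 6 libraries against 6 brought in genes that neither accession gave alone. CYP alone called 3909 genes (24.9% of genes tested) and TUR alone 2882 (18.4%). Of the 4167 shared genes 1409 were called in both alone, 1137 in CYP alone, 661 in TUR alone and 960 (23%) in neither. Those 960 had a median change of 0.278 on the log2 scale, against 0.597 for the genes called in both, with median SEs of 0.091 and 0.0906. Among them 15 changed at least 2-fold, and the 6 largest of these were at or below 2.92 CPM in every library. A gene of this kind, WRKY27 (AA77G00014), had 0.716, 1.03 and 0.0731 CPM in CYP light and 1.4, 2.87 and 0.304 CPM in CYP dark, with 1.43, 1.12 and 0.907 CPM in TUR light and 2.77, 2.92 and 2.79 CPM in TUR dark. Its groups overlapped in CYP and not in TUR.

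The change was larger in CYP for 51.7% of the shared rises and 65.3% of the shared falls, within the limit that the rule sets. Of the 1776 genes called in the same direction in CYP alone and in TUR alone (45.4% of the CYP calls and 61.6% of the TUR calls), 1409 were shared under the rule and 367 differed by more than its limit. Shared rises had a median level of 13.5 RPKM (computed from the counts, scaled to model length and library total) and a median model length of 2266.5 bases, shared falls 15.8 RPKM and 2052 bases, and all tested genes 9.65 RPKM and 2076 bases. The share of models with an Arabidopsis match was 95.6% among shared called genes and 95.4% among all tested. In 37 shared called genes the level was under 1 CPM in every library of a condition, 17 in darkness and 20 in light.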

How the data were processed

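RNA of imbibed seeds was made into 12 poly(A) libraries with the Lexogen SENSE kit, per the labels' protocols. The deposited table holds raw read counts per gene model, per the file headers, with 1 column for each library. HTSeq 0.6.1, Bowtie2 2.2.3, TAIR10, Trimmomatic and bcl2fastq 2.17.1 are listed in the submitters' processing notes. Not given in the sources used here were the step each tool was used for, the A. arabicum genome release, the strand setting and the handling of reads that fit several models. Values in RPKM were also deposited by the authors. For CYP these equal the deposited count divided by model length and column total, and for TUR they do not, so the authors' RPKM values were not used and the RPKM given here were computed from the counts. No column of values was left without a sample (0).

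Total counts differed by less than 2-fold between libraries, and 3 reads correspond to 0.215 to 0.423 CPM, which sets the precision of low values. Of 23594 models 18849 had reads and 15671 passed the filter of at least 1 CPM by library totals in at least 3 libraries. Names and descriptions are those of the Arabidopsis match in the deposited table, which 21079 models have. Pathway lists held 503 loci, of which 420 matched a model. Light was tested with edgeR 4.0.16 (R 4.3.3) by the quasi-likelihood test with TMM scaling on the counts, with accession as a covariate, and p-values were adjusted by Benjamini-Hochberg over all genes tested. Light effects in CYP alone, in TUR alone and their difference came from an edgeR fit of 4 group means on all 12 libraries. The fits were run on simulated data in which light effects were equal in both accessions and only genes averaging at least 5 CPM changed. That setting cannot test how the rule handles unequal effects, nor calls of changed genes near 1 CPM. DESeq2 1.42.0, limma 3.58.1, other scalings, filters and limits, a block of replicate numbers and fits that left out each library in turn were the alternatives.

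The members, lists and tests were chosen with earlier results of these data known. Genes were named by a fixed rule: the 12 largest shared rises and the 12 largest shared falls with a described match, at least 5 CPM in the higher condition of both accessions and no overlap within an accession. Added to these were the called genes with the largest changes in each list (up to 3) and class (up to 4), those nearest the limit, and the 6 largest in the sets called in neither accession alone and called for the accession difference. Called list genes beyond these were named with their list after their values were seen. Some called list genes are not reported here.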

Additional observations from a re-analysis of the deposited data

Results flagged for a closer look

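The light effect differed between CYP and TUR, by a test of the difference itself, in 1 of the 4167 shared called genes, AA10G00395, matched to serine carboxypeptidase-like 25, of a family that trims or transfers acyl groups. Its level was 140, 149 and 138 CPM in CYP light and 132, 127 and 128 CPM in CYP dark. In TUR it was 132, 137 and 128 CPM in light and 89.7, 89.8 and 77.5 CPM in darkness. The 3 TUR dark libraries were thus below the other 9, and the light and dark libraries of CYP lay close together without overlap. The difference of the log2 fold changes (CYP minus TUR) was -0.49, just inside the limit of the rule, with an adjusted p of 0.0444 in edgeR. The log2 fold change was 0.14 in CYP and 0.63 in TUR. The rule itself holds this difference under 0.5, so the low count of such genes is a description and not a result. How many shared genes pass this test depends on the setting, and those counts are given with the processing.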

How the results depend on the processing

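The 4167 shared called genes numbered 3942 to 4732 under the other scalings, tools, filters and models, 2959 with a limit of 0.25 and 4845 with a limit of 1, and 3544 to 4458 when a library was left out. Of the shared genes called without 1 library, 3375 to 3785 were among the 4167. Without a library, genes meeting the rule numbered 9441 to 10303. Genes called in the same direction in both accessions alone (1776 in the main fit) numbered 1263 to 1990. Genes meeting the rule, called for light or not, and called for CYP against TUR (5962 in the main fit) numbered 5519 to 6166. Shared list genes numbered 126 to 147 without a library and 89 with a limit of 0.25. The 299 shared genes of at least 2-fold numbered 191 in limma on log2(RPKM + 1), 91 on log2(RPKM + 5), 168 with a limit of 0.25, 495 with a limit of 1 and 279 to 346 without a library. The larger pseudocount shrinks the log2 changes of low genes by construction. Shared genes called for the difference itself (1) numbered 0 with DESeq2 size factors, with no filter, with at least 1 CPM in at least 6 libraries and with a limit of 0.25. They numbered 10 in DESeq2, 3 and 59 in limma with pseudocounts of 1 and 5, 116 with a limit of 1, and 0 to 6 without a library, with 6 reached without CYP dark replicate 3. The cause of these changes was not tested.

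With a block of replicate numbers 3942 shared genes were called, 3779 of them among the 4167, and 2 were called for the difference. The numbers share no stated batch: deviations of same-numbered light and dark libraries correlated at 0.0667, 0.0833 and 0.227 in CYP and at 0.0248, 0.108 and -0.124 in TUR, and not every library correlated best with its own number.

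Of 258 named genes none changed direction in any fit that tested them, 26 lost their call in at least 1 fit without a library, 15 under another setting, and 80 of the 256 that were shared fell outside the limit of 0.5 in at least 1 fit without a library. Depth limits genes near 1 CPM.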
